A study of Homo sapiens with 24 samples.

Results

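The comparison described here is that of doxycycline alone (Doxy) with no treatment (Ctl) in HCT-116 cells, a human colorectal carcinoma line with an activating beta-catenin mutation. It rests on 12 of the 24 arrays of the series, 6 labelled as untreated and 6 as doxycycline-treated, chosen by those labels. The cells of all groups came from 1 stably transfected clone that carries a Tet repressor and a Tet-inducible FLAG-tagged DN-Tcf4, a form of the Wnt transcription factor Tcf4 (gene TCF7L2) without the beta-catenin interaction domain. Doxy cells received 4 ug/ml doxycycline and Ctl cells received no agent. Per the labels treatment lasted 17.5 hr, whereas the methods place doxycycline before a butyrate step of that length, so the exposure to doxycycline may have been longer. In the 12 further arrays, NaB cells received 5 mM butyrate and DoxyNaB cells received both agents. Each of 6 experiments gave 1 array per group, so Doxy and Ctl were paired by experiment. The study calls the experiments biological replicates. Whether they were separate cultures from separate days is not said in the labels, and the p-values measure the spread between these experiments. No line without the transgene was treated with doxycycline in these samples, so an effect of the drug and an effect of the induced transgene cannot be told apart.

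Doxycycline is a tetracycline. It releases the Tet repressor and so switches on a Tet-controlled transgene, and it also binds bacterial ribosomes and, more weakly, the related ribosomes of mitochondria, which translate the respiratory chain subunits encoded in mitochondrial DNA. ATF4 is a transcription factor whose translation goes up when amino acids, the endoplasmic reticulum or mitochondria are disturbed. It then raises genes for amino acid synthesis, amino acid transport and transfer RNA charging, together with stress regulators such as DDIT3 (CHOP) and TRIB3. In the Wnt pathway beta-catenin binds Tcf factors on target genes, among them AXIN2, a feedback inhibitor.

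A level is the processed signal of a probe relative to the 75th percentile of its array, control spots left out, on the log2 scale, so 0 is that percentile. A change is the Doxy level minus the Ctl level of the same experiment on the log2 scale, given as the mean ± SD over 6 experiments. Levels compare 1 probe between arrays and not one gene with another. How many of all probes had groups without overlap was not counted, so a lack of overlap is given as a description of the probe. The RNA is bulk, so fewer cells with a transcript and less of it per cell cannot be told apart. Of 34127 probes, 17819 stood well above background throughout Ctl, throughout Doxy or in both, and limma tested these within experiments. They represent 12562 named genes, each taken at its tested probe of highest mean level.

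The arrays differed in quality between experiments more than between treatments. Between 52.7% and 86.6% of spots were well above background, and this share was higher on the Doxy array in 5 of 6 experiments (exact sign-flip permutation test, two-sided p = 0.0625). The net signal of the negative controls was 48.4 to 76.9 on Ctl arrays and 49.5 to 79.6 on Doxy arrays. It was higher on the Doxy array in 6 of 6 experiments (exact sign-flip p = 0.03125, the smallest that 6 pairs can give, and 0.125 after adjustment over the 4 array measures compared). On every slide the Ctl array held position 1 and the Doxy array position 3, so slide position and treatment cannot be told apart. Of 13 colon epithelium markers, 10 were well above background on all 12 arrays, among them EPCAM, CDH1, KRT8 and CDX2. Of 10 fibroblast markers COL1A1 was well above background on all 12 arrays and COL3A1 and PDGFRA on 0, and of 8 endothelium markers ESAM was on all 12. Of 10 leukocyte markers on the array, CD14, CD68 and CD4 were well above background on all 12.

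TCF7L2, the gene whose shortened form was placed under doxycycline control, did not pass the test in Doxy/Ctl at any of its 3 tested probes. At the probe at chr10:114895793-114895852 (NCBI36, the build of the files) the level was 0.19, 0.32 and 1.42 (lowest, median and highest) in Ctl and 0.10, 0.45 and 1.54 in Doxy. The groups overlapped, and the change was 0.04 ± 0.18 (SD, n = 6; adjusted p = 0.764). With butyrate in both arms the same probe was higher by 3.22 ± 0.45 in DoxyNaB than in NaB, in 6 of 6 experiments. The doxycycline effect differed between the presence and absence of butyrate (limma interaction, adjusted p = 3.99e-08). The probe at chr10:114901475-114901534 changed by -0.17 ± 0.99 without butyrate and by 2.96 ± 0.88 with it, and its Ctl levels ran from -4.11 to -1.57. The probe at chr10:114714311-114714370, at the other end of the gene, changed by 0.36 ± 0.60 and by -1.25 ± 0.65. The transcripts that these probes detect include those of the endogenous gene.

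Few genes passed the test, and most of those that passed changed by little. A gene that did not pass may still have changed: at an unadjusted limma p under 0.05 there were 3716 probes. At an adjusted p under 0.05, 358 probes were called, 2.01% of those tested, and 60 (0.337%) were called at 0.01. Of the 358, 259 were higher and 99 lower in Doxy, and 356 moved the same way in 6 of 6 experiments. At the gene level 197 rose (1.57%) and 68 fell (0.541%). The median size of the change among these 265 genes was 0.41, and 187 of them changed by less than 0.5. Past 2-fold at the threshold of 0.05 there were 13 higher and 5 lower probes. The median change of all genes tested was 0.01. The balance of directions moved with the scaling: 72.3% of the called probes were higher here, 85.4% of 41 with normexp background correction, 64.7% of 224 with quantile normalization and 59% of 234 with scaling to the median. With only probes well above background on all 12 arrays, 482 were called and 67.4% of these were higher. Without the 6 pairs as blocks, 42 probes were called. With any 1 of the 6 experiments left out the count lay between 71 (without experiment 5) and 217 (without experiment 2), and in experiments 2 to 4 alone it was 0.

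The ATF4 amino acid stress response had the most members that rose of all lists. Of 40 genes on this list 35 were tested: 22 rose, 0 fell and 13 did not pass, where 1.57% of all genes rose. In 6 of 6 experiments 26 were higher, against 7.43% of all genes. The median change of the 35 was 0.45, with experiment medians between 0.28 and 0.62. It stayed between 0.36 and 0.47 under the 4 scalings. The count of members that rose was 21 with quantile normalization, 15 with median scaling and 10 with normexp. It was between 15 and 18 when 1 experiment was left out, 11 without the replicate block, and 6 when dim probes were not filtered out. In experiments 2 to 4 alone, scanned on the same day on separate slides, 0 members passed with the median at 0.41. In experiments 5 and 6 alone, scanned together on another day, 14 passed with the median at 0.53. Both fits rest on few pairs, so their counts cannot be compared between scan days. The other genes of the list ran down to -0.04 (SHMT2, the mitochondrial serine hydroxymethyltransferase).

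**Figure D1:**
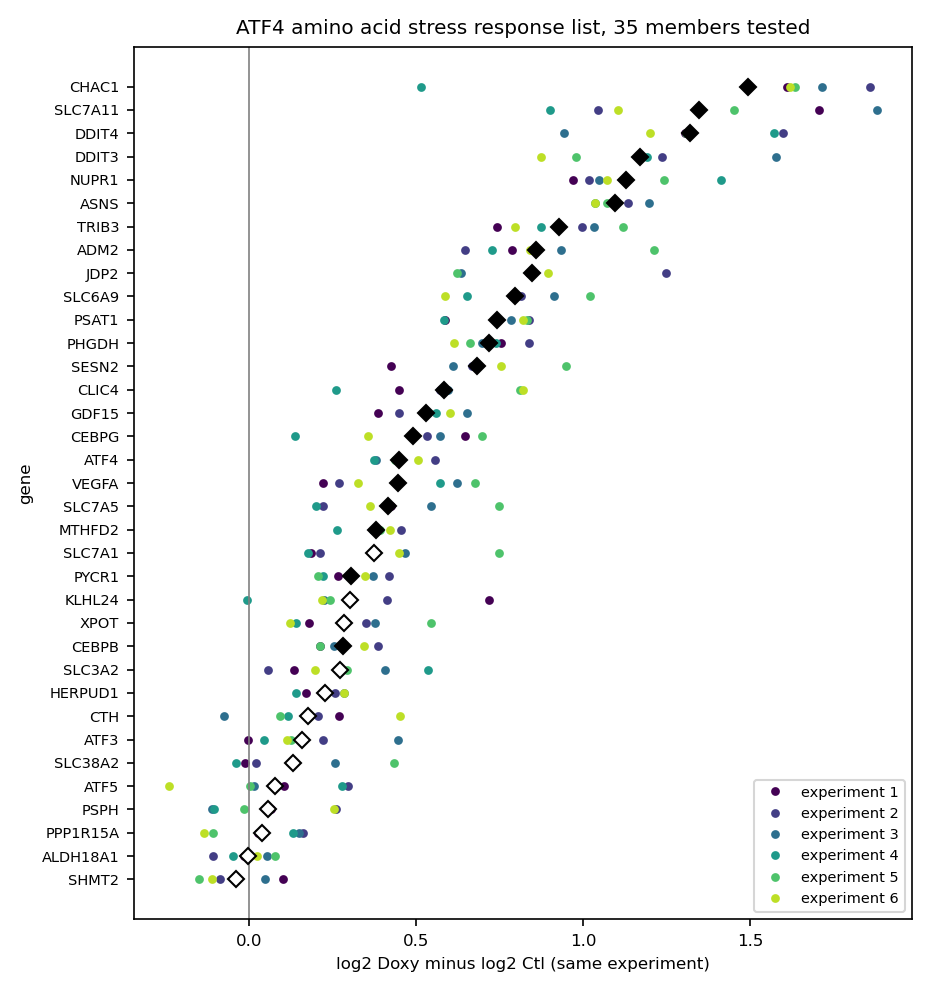
Change in Doxy relative to Ctl (log2, horizontal axis) for the 35 tested members of the ATF4 amino acid stress response list. Coloured points are the 6 experiments, diamonds their mean, and filled diamonds mark the 22 genes past an adjusted p of 0.05. From CHAC1 (1.49) to CEBPB (0.28), all 6 points of each filled gene lie to the right of 0.

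Several stress effectors and regulators rose. CHAC1, an enzyme that degrades glutathione, had levels of 0.71, 0.82 and 1.35 (lowest, median, highest) in Ctl and 1.29, 2.50 and 2.96 in Doxy. It rose by 1.49 ± 0.49 (2.81-fold; adjusted p = 0.0072), and the groups overlapped at 1 point, the Doxy array of experiment 4. DDIT3, the pro-apoptotic transcription factor CHOP, had levels of -0.49, -0.33 and -0.04 in Ctl and 0.46, 0.78 and 1.32 in Doxy. The groups did not overlap, and the rise was 1.17 ± 0.24 (adjusted p = 0.00162). DDIT4, an inhibitor of the growth kinase mTORC1, went from 1.02, 1.33 and 1.88 to 2.50, 2.71 and 2.97, again with no overlap. Its rise was 1.32 ± 0.24 (2.5-fold). TRIB3, a pseudokinase that restrains ATF4 and AKT, rose by 0.93 ± 0.15, and SESN2, a leucine sensor upstream of mTORC1, by 0.68 ± 0.17. NUPR1, a small stress-induced nuclear protein, rose by 1.13 ± 0.17 from levels between -4.64 and -3.19. Its change was as small as 0.36 under another scaling. The transcript of ATF4 itself rose by 0.45 ± 0.07 (1.37-fold; adjusted p = 0.0072), and those of its partners CEBPG and CEBPB by 0.49 ± 0.21 and 0.28 ± 0.07. ATF3, ATF5 and PPP1R15A, which belong to the same response, changed by 0.16, 0.08 and 0.04 and did not pass.

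Several enzymes of amino acid synthesis rose too. ASNS, asparagine synthetase, had Ctl levels of 3.48, 3.56 and 3.82 and Doxy levels of 4.58, 4.66 and 4.90. The groups were more than 0.7 apart, and the rise of 1.09 ± 0.06 (2.14-fold; adjusted p = 0.000157) was almost the same in each experiment, from 1.03 to 1.20. PHGDH and PSAT1, which open the serine synthesis pathway, rose by 0.72 ± 0.08 and 0.74 ± 0.12, while PSPH, which closes it, changed by 0.06. PYCR1, of proline synthesis, rose by 0.31 ± 0.09, while ALDH18A1, of the same pathway, changed by -0.0028. MTHFD2, a mitochondrial folate enzyme, rose by 0.38 ± 0.06. The probe for the transcript FLJ43315, described in the files as moderately similar to asparagine synthetase, rose by 1.24 ± 0.16. Because of that similarity its signal may hold ASNS transcripts. PCK2, the mitochondrial phosphoenolpyruvate carboxykinase, was not on the list and was named as 1 of the 10 largest rises. Its levels were -0.93, -0.55 and -0.18 in Ctl and 0.10, 0.80 and 1.00 in Doxy, with no overlap, and it rose by 1.25 ± 0.13 (2.38-fold; adjusted p = 0.000189).

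Amino acid carriers moved less evenly. SLC7A11, the cystine and glutamate exchanger, had levels from -1.03 to 0.69 in Ctl and from 0.67 to 2.14 in Doxy, with medians of 0.43 and 1.48. The groups overlapped by a hair because its Ctl level varied between experiments, and the paired rise was 1.35 ± 0.39 (2.54-fold; adjusted p = 0.00569). The glycine transporter SLC6A9 rose by 0.80 ± 0.16 and the leucine transporter SLC7A5 by 0.42 ± 0.21. SLC3A2, the partner chain of both SLC7A11 and SLC7A5, changed by 0.27 and did not pass (adjusted p = 0.1), nor did the arginine and lysine transporter SLC7A1 at 0.37 or the glutamine transporter SLC38A2 at 0.13. Of secreted factors, GDF15, a cytokine that acts on appetite, rose by 0.53 ± 0.10 with no overlap between groups, ADM2 by 0.86 ± 0.20 and VEGFA by 0.45 ± 0.20.

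**Figure D2:**
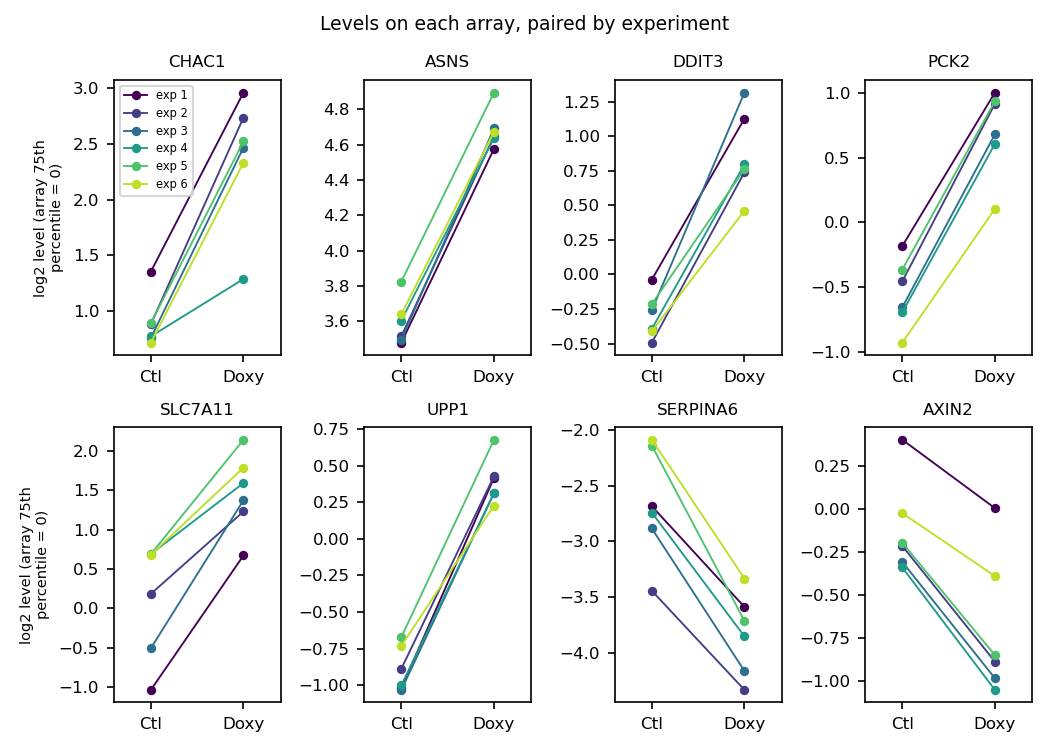
Levels (log2 signal, with the 75th percentile of each array at 0) of 8 genes in the Ctl and Doxy arrays, with a line for each of the 6 experiments. ASNS, DDIT3, PCK2 and UPP1 show Doxy levels above all Ctl levels, CHAC1 has its shallowest line in experiment 4, and SERPINA6 and AXIN2 go down in each experiment with overlapping groups.

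The cytosolic aminoacyl-tRNA synthetases, which charge transfer RNAs and many of which ATF4 regulates, formed a second group. All 20 were tested: 5 rose, 0 fell and 15 did not pass, where 1.57% of all genes rose. The median change was 0.20 (0.11 to 0.28 under the 4 scalings). GARS1 rose by 0.89 ± 0.39, CARS1 by 0.64 ± 0.17, SARS1 by 0.50 ± 0.09, YARS1 by 0.45 ± 0.16 and AARS1 by 0.38 ± 0.06. SARS1 had levels of 1.74, 1.83 and 2.01 in Ctl and 2.20, 2.36 and 2.47 in Doxy, which did not overlap. FARSA and RARS1 lay at -0.20 and -0.10, below 0 in 6 of 6 experiments, and did not pass. HARS1 and KARS1 lay at -0.18 and -0.13 and did not pass either, and each rests on 5 experiments because an outlying spot was left out.

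The letters TGATGNAA, in either orientation, are a core of the composite element to which ATF4 binds together with a C/EBP factor. The motif was chosen after the rise of the list had been seen. RefSeq promoters (GRCh38.p14, 250 bases before to 50 after the start) were at hand for 18 of the 22 members of the ATF4 list that rose, and 2 of them, CHAC1 and ASNS, held it. Of the 29 tested members with a promoter 6 held it, the other 4 being ATF3, SLC3A2, SLC7A1 and HERPUD1, which did not pass. Of the synthetases that rose, AARS1 and CARS1 held it. Of all 27305 promoters 3.7% held it, on either strand, and of the 9995 at hand for the 12562 genes tested 1.7% did. Stretches with the match are shown for CHAC1, ASNS and AARS1 because these genes rose together, each 60 bases long on the strand of the gene, with the match in capitals. They lie at chr15:40953236-40953295 (CHAC1, plus strand, 209 bases before the start), chr7:97872443-97872502 (ASNS, minus strand, 68 bases before) and chr16:70289660-70289719 (AARS1, minus strand, 187 bases before).
CHAC1: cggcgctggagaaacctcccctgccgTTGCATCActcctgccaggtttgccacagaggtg
ASNS: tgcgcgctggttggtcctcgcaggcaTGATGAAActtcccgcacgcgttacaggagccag
AARS1: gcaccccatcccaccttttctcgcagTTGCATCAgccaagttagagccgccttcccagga
A match is a description of the letters, and its absence in the other promoters speaks only of this window. Promoters were at hand for only part of all genes tested, and for 137 of the 197 that rose, so no comparison with either is drawn.

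Probes for mitochondrial transcripts included the largest fall among the 17819 probes tested. The files place 5 tested probes on mitochondrial DNA, and 4 more on nuclear chromosomes carry descriptions of mitochondrial genes. Fragments of mitochondrial DNA lie in the nuclear genome, and the descriptions cannot tell which copy gave the signal. These 9 probes were chosen after their values had been seen. Of the 9, 5 fell, 0 rose and 4 did not pass, where 99 of all 17819 probes tested fell. Because of the way the 9 were chosen, this count is a description. The sequences of 4 that fell and of 1 on the opposite strand are printed because they show which stretches were measured, 5' to 3' as synthesised on the array, with coordinates on NCBI36. A_24_P182122 lies at chrM:3369-3428, A_23_P406928 (described as NADH dehydrogenase subunit 5) at chrM:13887-13946 and A_23_P317056 at chrM:14449-14508 on the minus strand. A_23_P301925 (described as similar to cytochrome c oxidase subunit II) lies at chr1:557430-557489. A_23_P315252 is placed on chromosome 5 (134290243 to 134290250), which covers 8 of its 60 bases. The longest run of bases that any of the 9 shares with another is 9, so they are distinct in sequence.
A_24_P182122: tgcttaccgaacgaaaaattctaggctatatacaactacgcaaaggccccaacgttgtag
A_23_P406928: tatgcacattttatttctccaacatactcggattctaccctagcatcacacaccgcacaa
A_23_P301925: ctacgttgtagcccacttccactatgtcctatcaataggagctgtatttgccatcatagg
A_23_P315252: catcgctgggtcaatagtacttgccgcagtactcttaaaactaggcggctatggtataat
A_23_P317056: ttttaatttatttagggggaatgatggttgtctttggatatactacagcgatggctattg

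A_24_P182122 had levels of 3.63, 4.06 and 4.50 (lowest, median, highest) in Ctl and 0.85, 1.49 and 2.06 in Doxy. The groups were more than 1.5 apart. It fell by 2.58 ± 0.60 on the log2 scale, to 0.167 of the Ctl signal (adjusted p = 0.00162). A_23_P301925 went from 6.67, 7.12 and 7.49 to 5.71, 5.86 and 6.29 and fell by 1.22 ± 0.24. A_23_P406928 went from 2.78, 3.27 and 3.86 to 1.84, 2.25 and 2.49 and fell by 1.14 ± 0.36. A_23_P315252 went from 6.30, 6.54 and 7.11 to 5.22, 5.55 and 5.80 and fell by 1.11 ± 0.26. None of these 4 had overlapping groups, and each fell in 6 of 6 experiments and under all 4 scalings. A_33_P3336696, described as NADH dehydrogenase 4L, fell by 0.43 ± 0.19 (adjusted p = 0.0369) with overlapping groups, and passed under 1 of the 3 other scalings.

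The 3 remaining plus-strand probes did not pass. A_23_P431853 (chrM:4914-4973) changed by -0.17 ± 0.14, A_24_P551842 (chrM:15588-15646) by -0.23 ± 0.10 and A_23_P402751 (chr1:558400-558459) by -0.31 ± 0.19. A_23_P402751 carries the same description as A_23_P301925, similar to cytochrome c oxidase subunit II. Whether the pair measure the same gene was not tested, so their changes cannot be set against each other. The probe on the minus strand, A_23_P317056, lay higher in Doxy in 6 of 6 experiments by 1.15 ± 0.96, with differences from 0.15 to 2.64, and did not pass (adjusted p = 0.102). Its Ctl levels ran from 1.35 to 4.07 and its Doxy levels from 3.56 to 4.22.

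**Figure D3:**
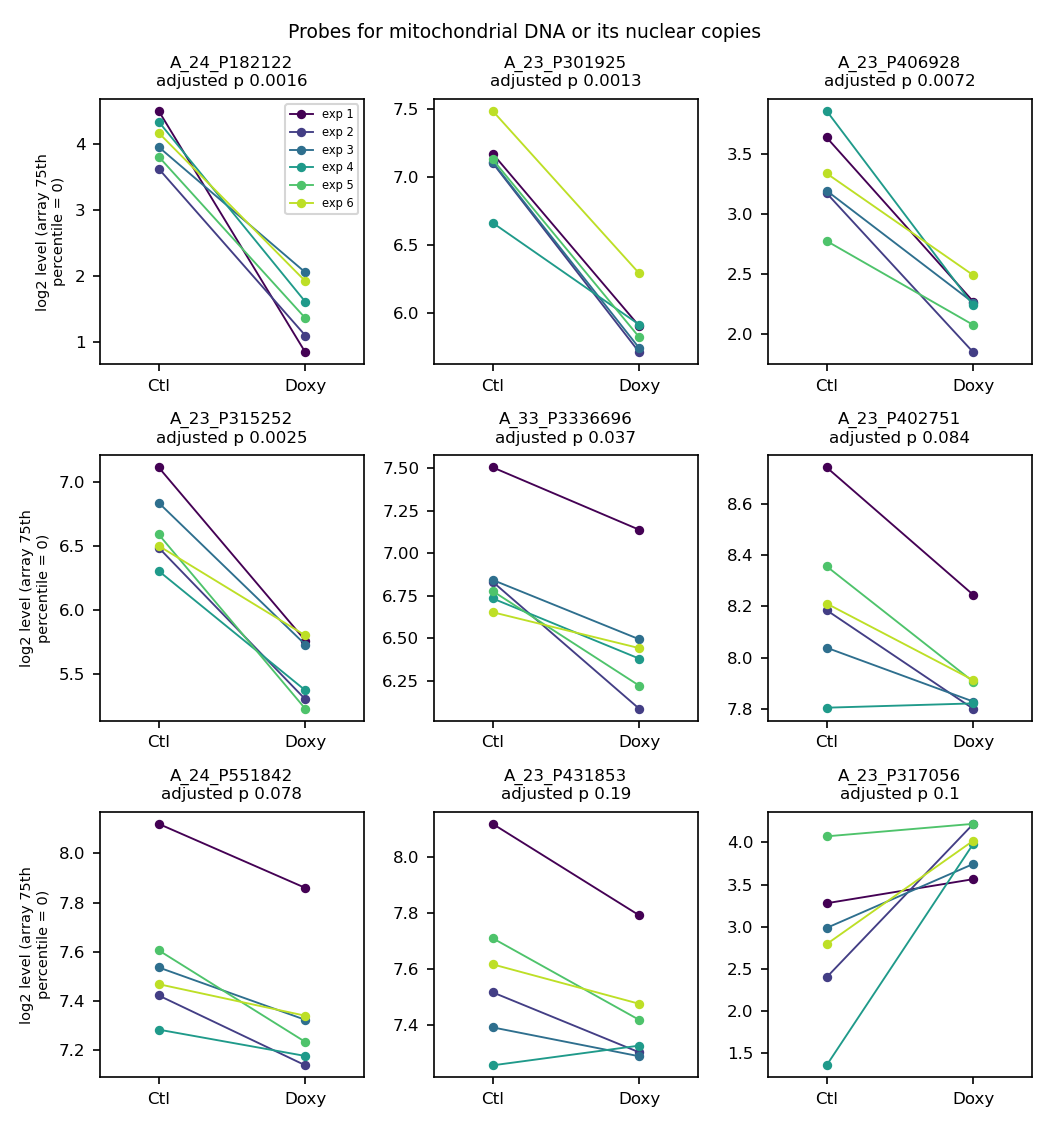
Levels (log2 signal, with the 75th percentile of each array at 0) of 9 probes for mitochondrial DNA or nuclear copies of it in Ctl and Doxy arrays, 1 line per experiment, each panel with its own axis. The 4 panels from A_24_P182122 (down 2.58) to A_23_P315252 (down 1.11) show groups that do not overlap, and the minus-strand probe A_23_P317056 goes up.

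The 3 lists of nuclear genes for the respiratory chain, the mitochondrial ribosome and mitochondrial chaperones held no gene that passed. Of 75 nuclear OXPHOS subunit genes tested, 0 rose and 0 fell; 3 were lower in 6 of 6 experiments, and the median change was -0.06 here and 0.04 with normexp. ATP5MC2, a subunit of ATP synthase, had the lowest p of those at -0.19 ± 0.12 (adjusted p = 0.128). Of 86 genes of the mitochondrial ribosome and translation machinery 0 passed and 19 were lower in 6 of 6 experiments (background 7.5%), with a median of -0.09 that was 0.00 with normexp. MRPS10, a small-subunit protein, was on the other side at 0.30 ± 0.13 with no overlap (adjusted p = 0.053). The background of 7.5% was not matched for brightness, and in the brightest of 4 equal groups of genes 400 of 3141 were lower. Of 17 genes of the mitochondrial unfolded protein response, such as chaperones of the matrix, 0 passed and 0 were on the same side in 6 of 6 experiments. Of 24 endoplasmic reticulum chaperones and unfolded protein response genes 1 rose, XBP1, a transcription factor of that response, by 0.24 ± 0.05 (adjusted p = 0.0497). XBP1 passed under none of the 3 other scalings.

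Other large rises lay outside the amino acid genes. CSTA, cystatin A, an inhibitor of cysteine proteases, rose by 1.69 ± 0.73 (3.22-fold; adjusted p = 0.0186). Its Ctl levels were -4.94, -3.12 and -2.90, well above background on 5 of 6 arrays, and its Doxy levels -2.23, -1.90 and -1.40. It passed the filter on dim probes through Doxy, the group where it was high, so its rise is given as a description. The change of CSTA was 0.72 at its smallest under another scaling. UPP1, uridine phosphorylase, went from -1.03, -0.94 and -0.67 to 0.23, 0.37 and 0.68 with no overlap, and rose by 1.28 ± 0.17 (2.44-fold; adjusted p = 0.000251). PMAIP1 (NOXA), a pro-apoptotic BCL2 family member, rose by 0.57 ± 0.09, and HRK, another of that family, by 0.36 ± 0.07. Of 32 p53 targets and CDK inhibitors the 3 that rose were PMAIP1, GDF15 and SESN2, the last 2 of which stand on the ATF4 list too. The list's median was 0.01, and 1.57% of all genes rose. KRT80, a keratin, rose by 0.55 ± 0.29 and passed under none of the 3 other scalings.

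Small rises were found in a few genes of other lists, where over all genes 1.57% rose and 7.43% were higher in 6 of 6 experiments. Of 25 AP-1 and immediate early genes tested, 3 rose, 0 fell and 22 did not pass, and 11 were higher in 6 of 6 experiments. The median was 0.16, with experiment medians from 0.13 to 0.21, and it was 0.07 to 0.18 under the 4 scalings. KLF4, a transcription factor of differentiating epithelium, went from -1.46, -1.32 and -1.31 to -1.07, -0.88 and -0.77, with no overlap, and rose by 0.46 ± 0.07. DUSP6, a phosphatase of ERK, rose by 0.37 ± 0.11 and SPRY4, an inhibitor of receptor tyrosine kinase signalling, by 0.34 ± 0.13. JUN, FOSL1 and EGR1 lay 0.34, 0.31 and 0.48 higher, in 6 of 6 experiments each, without passing. Of 21 targets of hypoxia-inducible factors 3 rose, DDIT4, VEGFA and NDRG1 (0.45 ± 0.23), and PDK1 lay 0.49 ± 0.32 higher without passing; the median was 0.14, and 0.04 with normexp. The first pair are also ATF4 list members. Of 13 metallothionein and zinc response genes 0 passed and 4 were higher in 6 of 6 experiments, MT1B by 0.32 ± 0.15. RELB, of the NF-kB family, rose by 0.28 ± 0.09, and SQSTM1, an autophagy receptor, lay 0.29 ± 0.15 higher without passing. SPRY4, VEGFA, NDRG1 and RELB passed under none of the 3 other scalings, and KLF4 and DUSP6 under 1.

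Among named genes, apart from the mitochondrial probes, SERPINA6 had the largest fall. SERPINA6, corticosteroid-binding globulin, had levels of -3.44, -2.71 and -2.08 in Ctl and -4.34, -3.79 and -3.33 in Doxy and fell by 1.17 ± 0.26 (to 0.444 of Ctl; adjusted p = 0.00205). The groups overlapped, but each pair went down. Under normexp, which lifts dim probes, its fall was 0.52 and still passed. The next named falls were between -0.47 and -0.58: AXIN2, the lipopolysaccharide-degrading hydrolase AOAH, SSUH2, the homeobox factor HMX1, C18orf23, CD4, MIR9-3HG, PRR19 and PLEKHO1. HMX1 went from 0.91, 1.07 and 1.36 to 0.47, 0.62 and 0.79 and SSUH2 from -3.23, -3.08 and -2.92 to -3.93, -3.61 and -3.31, both with no overlap. CD4, a T-cell surface protein that also stands on the leukocyte marker list, was well above background on all 12 arrays and fell by 0.49 ± 0.20. Of the 4 leukocyte markers tested it was the 1 that passed.

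Of Wnt feedback genes and direct targets, 32 of 43 were tested and 2 fell, AXIN2 and BMP4, while 0 rose. Among all genes 0.541% fell. The median of the list was -0.02. AXIN2 had levels of -0.34, -0.20 and 0.40 in Ctl and -1.05, -0.87 and 0.01 in Doxy. The groups overlapped through experiment 1, and within experiments it fell by 0.58 ± 0.15 (to 0.669 of Ctl; adjusted p = 0.00863). BMP4, a ligand of the TGF-beta family, went from 4.59, 4.94 and 5.09 to 4.36, 4.54 and 4.81 and fell by 0.32 ± 0.10 (adjusted p = 0.0319). AXIN2 passed under 2 of the 3 other scalings and BMP4 under 1, and neither passed with normexp. MYC and CCND1, the growth genes at the end of the pathway, changed by 0.08 ± 0.06 and 0.05 ± 0.05 (adjusted p = 0.355 and 0.54). DKK1, KITLG, SOX4 and SP5 changed by -0.16, -0.13, -0.10 and -0.20, VIM by 0.25, RNF43 by -0.05, ZNRF3 by 0.16, NKD1 by 0.32 and TCF7 by -0.07, and none of them passed. SOX9 lay higher in 6 of 6 experiments by 0.29 ± 0.12 (adjusted p = 0.0554). SOX2, LEF1, LGR5, ASCL2 and NOTUM were not well above background on enough arrays to be tested. With butyrate present AXIN2 changed by -2.53 ± 0.34 and BMP4 by -1.31 ± 0.20 in DoxyNaB relative to NaB, more than without it (interaction adjusted p = 6.11e-08 and 1.17e-05). Promoters were at hand for 58 of the 68 genes that fell, and 11 of them (19%) held a Tcf site, CTTTG followed by any of AA, AT, TA and TT, on either strand. The share was 8.2% of the 9995 promoters at hand for the 12562 genes tested, 6.6% of the 137 at hand for genes that rose and 13.9% of all 27305 promoters. Promoters were at hand for only part of the tested, risen and fallen genes and no test was run, so no comparison is drawn from these shares.

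In the heat shock, cholesterol, mitosis, DNA replication and proteasome lists, with medians between -0.19 and -0.09, 4 genes fell and the other members did not pass. Among all genes 0.541% fell and 7.5% were lower in 6 of 6 experiments. The latter share rose with brightness, from 85 of 3141 in the dimmest of 4 equal groups of genes to 400 of 3141 in the brightest. The lists were not matched for brightness. Of 15 cytosolic heat shock genes 1 fell, HSPA1B, an inducible HSP70, from 4.71, 5.01 and 5.24 to 4.30, 4.58 and 4.79. Its fall of 0.44 ± 0.03 (adjusted p = 0.00591) hardly varied between experiments, although the groups overlapped. HSPA1A, its near-identical neighbour, was not tested, and the probe may detect both. DNAJB1, the HSP70 co-chaperone, lay 0.26 lower (adjusted p = 0.0524), 4 of the 15 were lower in 6 of 6 experiments and the median was -0.19 (-0.28 to -0.13 under the 4 scalings). Of 30 cholesterol and fatty acid synthesis genes 1 fell, FADS2, a fatty acid desaturase, by 0.37 ± 0.11. HSPA1B and FADS2 each passed under 2 of the 3 other scalings, and neither passed with normexp. HMGCS1, DHCR7 and IDI1 lay at -0.24, -0.26 and -0.27, below 0 in 6 of 6 experiments, and did not pass, and the median was -0.17 (-0.25 to -0.11).

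Of 38 mitosis genes 2 fell, the spindle motors KIF11 by 0.28 ± 0.09 and KIF20A by 0.26 ± 0.08, and 15 were lower in 6 of 6 experiments against 7.5% of all genes. Among these CCNB1, CDC20, PLK1 and AURKB lay at -0.22, -0.22, -0.23 and -0.22. The median was -0.14 and stayed between -0.22 and -0.12 under the 4 scalings, but KIF11 and KIF20A passed under none of the 3 others. Of 44 DNA replication and G1/S genes 0 passed and 10 were lower in 6 of 6 experiments, GINS4 by 0.20 ± 0.09. Their median was -0.09 and became -0.02 with normexp. Of 31 proteasome subunits 0 passed and 9 were lower in 6 of 6 experiments, PSMB5 by 0.28 ± 0.14 (adjusted p = 0.0673), with a median of -0.09 and of -0.03 with normexp. IMPDH1, of guanine nucleotide synthesis, lay 0.31 ± 0.14 lower, and H2AX, a histone, fell by 0.26 ± 0.06. H2AX passed under none of the 3 other scalings. Of 79 cytosolic ribosomal proteins 0 passed, RPS12 lying 0.31 ± 0.19 higher with no overlap, and the median was 0.02.

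**Figure D4:**
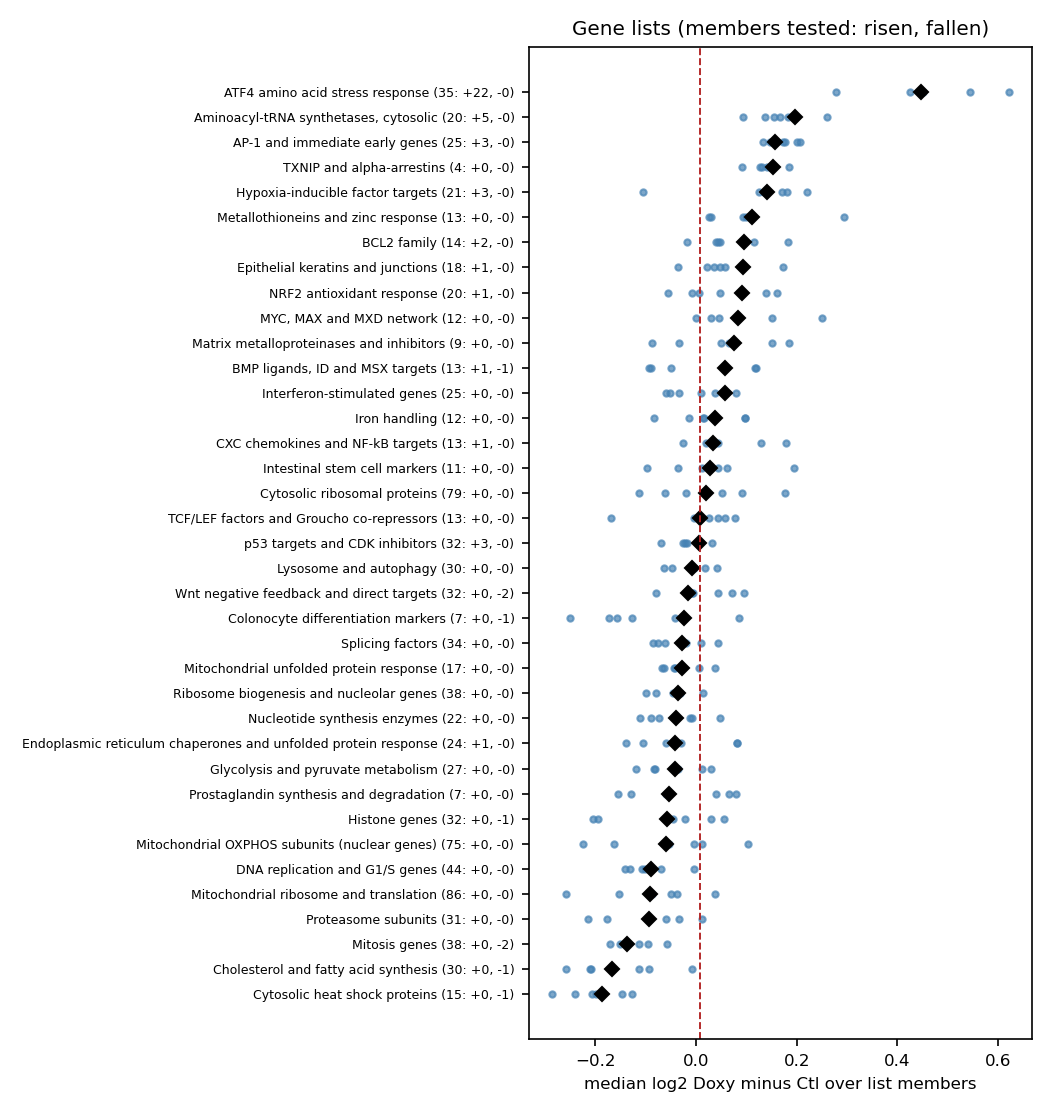
Median change (log2 Doxy minus Ctl, horizontal axis) of each gene list with at least 4 genes tested. Black diamonds give the median of the members' mean changes, blue points the medians of the 6 experiments, labels the number tested, risen and fallen, and the dashed line the median of all genes (0.01). The ATF4 list lies apart at 0.45, and the heat shock list is lowest at -0.19.

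Small shifts depended on how bright a gene was. In the dimmest of 4 equal groups of genes the median change was 0.09 and 79 rose and 17 fell. In the brightest it was -0.04, with 29 risen and 16 fallen, and 400 genes lower against 144 higher in 6 of 6 experiments. With normexp the trend turned over: the medians were -0.10 and 0.05. Of the genes that fell here, few passed with normexp: 1 gene fell in the dimmest group and 0 in each of the other groups. Rises were lost too. From the dimmest to the brightest group 79, 46, 43 and 29 genes rose here, and 0, 3, 13 and 10 with normexp. Over all genes 933 (7.43%) were higher and 942 (7.5%) lower in 6 of 6 experiments. Of 37 gene lists, 19 had a median that changed sign between the 4 scalings, all of them within 0.18 of 0. The ATF4, synthetase, AP-1 and metallothionein lists stayed above 0 and the heat shock, cholesterol, mitosis, DNA replication and proteasome lists below 0 in all 4. Single probes were followed under the 3 other scalings for 81 named probes only, those of the naming rule given below and the mitochondrial probes. Further genes of the text, such as TRIB3 and PHGDH, were not among the 81. Of the 48 called among the 81, 15 passed under all 3 other scalings. The 10 higher were CHAC1, SLC7A11, DDIT4, DDIT3, UPP1, PCK2, ASNS, FLJ43315, CARS1 and GDF15, and the 5 lower were SERPINA6 and 4 of the mitochondrial probes.

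The DoxyNaB and NaB arrays share no array with Doxy and Ctl, and give the effect of doxycycline in cells that also had butyrate. They are not a repeat of Doxy/Ctl. The study's western blot had little DN-Tcf4 protein with doxycycline alone and much of it with both agents. Its reporter assay of Wnt activity gave a lower ratio with doxycycline alone than in untreated cells. The TCF7L2 probe at chr10:114895793-114895852 changed by 0.04 without butyrate and by 3.22 with it. In experiment 1 the DoxyNaB and NaB arrays lay on another slide than Ctl and Doxy. Of the 68 genes that fell in Doxy/Ctl, 59 were lower in DoxyNaB/NaB too, whereas over all genes 44.8% had a mean change above 0. Of the 197 that rose, 110 were higher there as well, and 28 were higher in 6 of 6 experiments (background 3.74%), while 18 were lower in all 6. The doxycycline effect differed between the settings for 41 of the 197 at an interaction adjusted p under 0.01, against 189 of all 12562 genes. The 197 were chosen by the Doxy/Ctl change, which the interaction subtracts, so these counts are a description and not an independent comparison. The median change of the ATF4 list was 0.04 with butyrate. TRIB3 changed by 0.05 there, SLC7A11 by -0.55, PCK2 by 0.15, ASNS by 0.37 and CHAC1 by 0.29, and for each of these 5 the interaction passed. DDIT3, GDF15 and UPP1 were higher in 6 of 6 experiments in both settings, by 1.58 ± 0.42, 0.75 ± 0.16 and 1.38 ± 0.27 with butyrate, and the interaction did not pass for them (adjusted p = 0.363, 0.506 and 0.84). The 4 strongly reduced mitochondrial probes were lower in 6 of 6 experiments with butyrate too, A_24_P182122 by 1.27 ± 0.44 and the others by 0.39 to 0.41. The fall of A_24_P182122 and of A_23_P301925 was smaller with butyrate (interaction adjusted p = 0.00475 and 0.00702).

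**Figure D5:**
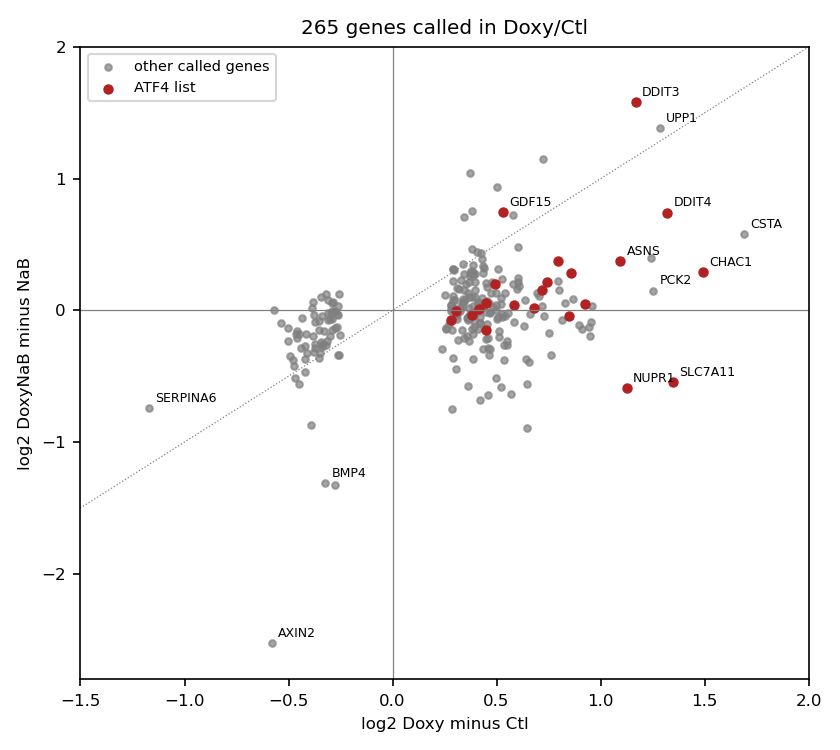
Change with doxycycline alone (log2 Doxy minus Ctl, horizontal axis) and with butyrate present (log2 DoxyNaB minus NaB, vertical axis) for the 265 genes called in Doxy/Ctl, 1 point per gene, ATF4 list members in red. On the dotted diagonal both are equal. DDIT3 and UPP1 lie above it, most ATF4 list members lie near 0 on the vertical axis, and AXIN2 lies far below at -2.53.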

How the data were processed

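Each sample was hybridised to a 1-colour Agilent array. The deposited intensity values came from Agilent's scanner software (Feature Extraction, version 9.5.3.1): per the file headers, background and spatial trend were removed within an array and no scaling between arrays was applied. The authors' methods name a paired test. Here, control spots and outlier-flagged spots were left out, the log2 of the processed signal minus that of the array's 75th percentile was taken, and spots of a probe were averaged. The number of arrays limits the precision. Probes that stood well above background throughout Ctl or throughout Doxy were fitted with limma 3.58.1 (R 4.3.3; lmFit, eBayes) on 12 arrays with experiment as a block, Benjamini-Hochberg adjusted over 17819 probes. Each spot flagged as an outlier drops that experiment for its probe. Same-numbered Ctl and Doxy arrays were paired because they share a slide; their deviations from the group means correlated with r from 0.462 to 0.861, although in experiment 2 the highest r with another number was 0.624, above its own 0.462, and in experiment 6 it was 0.563 beside 0.577. The interaction was fitted on all 24 arrays. Fits were tested on simulated data with the spread of these arrays. Of 50 changes of 0.3 the fit recovered 13, of 50 changes of 0.5 it recovered 33 and of 50 changes of 1 it recovered 46. Small changes were thus often missed. The members and gene lists were chosen with earlier results of these data known. Named were all tested TCF7L2 probes, the 10 largest rises and falls moving the same way in 6 of 6 experiments at an adjusted p under 0.05, up to 3 passing members per list (otherwise 1 member of lowest p), and known Wnt genes; further list members and the mitochondrial probes were chosen after their values were seen. Genes were named from accessions in the files (25067 probes), pairs of accessions (305), current symbols (1035), older symbols (430) or the file's own name (392), through a RefSeq table of GRCh38.p14, and 6898 probes stayed unnamed. Sequences came from the files and RefSeq. Alternatives tried were normexp (offset 50), quantile and median scaling (floor of 5), other filters, no block, all 24 arrays, the methods' t-test, 1 probe per gene, and subsets of experiments. Plots used Python 3.11.15 and matplotlib 3.10.9.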

Additional observations from a re-analysis of the deposited data

Results flagged for a closer look

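In 19 of 162 groups of 6 arrays (11.7%), 1 array stood apart from the others by the Dixon gap ratio, where chance gives about 1 in 20; 17 of the 19 were arrays of experiment 1. The ratio was 0.672 and 0.708 for the TCF7L2 probes at 114895793 and 114714311 in Doxy, 0.692 for PLEKHO1, 0.719 for FADS2, 0.692 for POLR1C, 0.686 for MNT, 0.675 for HRK and 0.781 for PSMB5 in Doxy. It was 0.725 for CHAC1, 0.848 for MT1B, 0.737 for RELB and 0.731 for TCF7 in Ctl, all with experiment 1 highest, and 0.633 for PMAIP1 in Ctl with experiment 1 lowest. Among the mitochondrial probes it was 0.628 for A_23_P431853, 0.72 for A_24_P551842 and 0.748 for A_23_P402751 in Doxy and 0.777 for A_33_P3336696 in Ctl, again with experiment 1 highest. The remaining pair were ASNS in Doxy (0.636, experiment 5) and A_23_P301925 in Doxy (0.649, experiment 6).

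The effect of doxycycline differed between cells with and without butyrate at a limma interaction adjusted p under 0.01 for 26 of the 81 named probes. Part of the 81 were named for their Doxy/Ctl change, which the interaction subtracts, so the count is a description. The difference, with minus without butyrate on the log2 scale, was 3.13 and 3.18 for the TCF7L2 probes at 114901475 and 114895793. Among genes that rose with doxycycline alone it was -1.89 for SLC7A11, -1.2 for CHAC1, -1.2 for PMAIP1, -1.1 for PCK2, -0.845 for FLJ43315, -0.801 for KLF4, -0.721 for ASNS, -0.666 for SESN2, -0.603 for DUSP6, -0.56 for CARS1, -0.553 for HRK and -0.533 for XBP1. For MNT, which did not pass without butyrate, it was -0.578. Among Wnt genes it was -1.95 for AXIN2, -1.6 for MYC, -1.56 for SP5, -1.43 for DKK1, -1.05 for KITLG, -1.04 for CCND1, -1.01 for SOX9, -0.985 for BMP4 and -0.959 for RNF43. For the mitochondrial probes A_24_P182122 and A_23_P301925, which fell less with butyrate, it was 1.31 and 0.81.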

How the results depend on the processing

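At an adjusted p under 0.05 (358 probes) the count was 41 with normexp, 224 with quantile normalization, 234 with median scaling, 15 with no filter on dim probes, 42 with no replicate block and 182 with the methods' t-test (3453 unadjusted). At 0.01 (60 probes) it was 18, 34, 1 with no filter, 91 for probes well above background on all 12 arrays, 20 with no replicate block, 95 in the fit of 24 arrays and 10 with the t-test (1328 unadjusted). Experiments 2 to 4 alone gave 0 at both thresholds with limma, and 1430 at an unadjusted p under 0.05. Leaving out 1 experiment gave 71 (without experiment 5) to 217 (without experiment 2) and 14 (without experiment 2) to 24 (without experiment 1). Probes moving the same way in every experiment (2486 of 6 of 6) numbered 1286 with normexp, 1237 with median scaling, 2953 to 3873 with 1 experiment left out, 5643 in experiments 2 to 4 and 11328 in experiments 5 and 6. The median change of all probes (0.02) was -0.023 with normexp, -0.0043 with quantile normalization, -0.066 with median scaling, 0.043 with no filter and 0.0041 in experiments 2 to 4. ATF4 list members that rose (22) numbered 10 with normexp, 6 with no filter, 11 with no replicate block, 0 in experiments 2 to 4 and 14 in experiments 5 and 6, and 15 to 18 with 1 experiment left out. These ATF4 counts were chosen as alternatives after the data had been seen. NOG, an inhibitor of BMP ligands, was called at 0.39 higher in Doxy. Like CSTA, it was too dim in Ctl, with levels down to -4.55, and entered the test through Doxy alone. Its rise is therefore only a description. With normexp NOG had a change of -0.062 and an interaction of 0.086. These were the 1 reversal among the called changes of named probes and the 1 among their interactions. Of the other alternative values of called named probes, 484 kept their side of the threshold and 372 lost it. The causes were not tested. Signal over background limits the dim probes: the dimmest of 4 equal groups of genes had a median change of 0.09 here and -0.10 with normexp.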

Other observations

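Beyond the lists, further genes of amino acid handling rose in 6 of 6 experiments; all genes of this paragraph and the next were chosen after their values were seen. GPT2, the mitochondrial alanine aminotransferase, rose by 0.73 ± 0.15, ASS1, argininosuccinate synthase, by 0.79 ± 0.22, the neutral amino acid transporter SLC43A1 by 0.76 ± 0.17 and GOT1, aspartate aminotransferase, by 0.29 ± 0.11. NIBAN1, a stress-induced protein, rose by 0.95 ± 0.27, and TSC22D3 (GILZ), a glucocorticoid-induced leucine zipper protein, by 0.96 ± 0.21. With butyrate GPT2, SLC43A1, NIBAN1 and TSC22D3 changed by -0.05, -0.34, -0.13 and 0.04, and ASS1 by 0.41.

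EGFR, the epidermal growth factor receptor, rose by 0.36 ± 0.16, its ligand HBEGF by 0.38 ± 0.16 and its inhibitor ERRFI1 by 0.38 ± 0.13. PLAU, the protease urokinase, rose by 0.37 ± 0.12 at 1 probe, while a further probe lay at 0.36 ± 0.29 and did not pass. Of ligands for the natural killer cell receptor NKG2D, ULBP1 rose by 0.75 ± 0.17 and MICB fell by 0.33 ± 0.13 at 1 of its 2 tested probes.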
